A study of Mus musculus with 17 samples.

Results

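Of 35285 genes measured by RNA sequencing of the mouse cochlea, 34 are described here. They are genes of central neurons and glia, many of them best known from the cerebellum and hindbrain. They were chosen by their FPKM values in the control and NE groups, being higher in the controls, and are listed by symbol, so any comparison with these controls restates the choice. By their best known role, 9 belong to the granule cell lineage, 10 to Purkinje cells and other inhibitory neurons, 2 to unipolar brush cells or other neuronal lineages, 2 to glia, and 11 are broadly neuronal or have other roles.

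Granule cells are the small excitatory neurons that fill the inner layer of the cerebellar cortex, and Purkinje cells are its large inhibitory output neurons, wrapped by the processes of Bergmann glia. The dorsal cochlear nucleus of the hindbrain is built in a similar way and shares granule cells, unipolar brush cells and many of these genes. In the mouse, a lobule of the cerebellum, the paraflocculus, lies in a pocket of the temporal bone beside the inner ear, whereas the neurons of the cochlea itself are those of the spiral ganglion.

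The libraries came from wild-type male C57BL/6J mice, 1 mouse each, which were 8 weeks old at exposure. The 3 control mice had saline injections and no exposure. The 7 NE mice were exposed for 2 h to noise of 8 to 16 kHz at 100 dB, called octave-band in the methods and broadband in the sample labels, and the 7 brimonidine mice had the same noise and were given brimonidine, a drug that activates α2-adrenergic receptors, in 3 intraperitoneal injections of 1 mg/kg. RNA was taken 2 days after exposure from the cochlea, although the methods for qPCR name a smaller dissection that was also sequenced.

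Values are FPKM, the fragments counted on a gene divided by its exon length and by the total counted in its library. They allow for gene length and depth, but not for differences in composition between libraries. The totals recovered from the values were 14457733 to 16080796 fragments for the controls, 15769236 to 18288854 for the NE group and 16624437 to 18224926 for brimonidine. Genes that define the cochlea were present in every group: Coch, the most abundant gene of the cochlear list, had 444, 1040 and 631 FPKM in controls 1, 2 and 3 and between 468 and 763 in the exposed libraries. Control 2 stood apart from the other libraries, with a median correlation of 0.831 with them across genes against 0.955 for control 1 and 0.947 for control 3. In bulk RNA, fewer cells of a type and less RNA per cell cannot be told apart, and which tissue carried the transcripts below was not measured.

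The sequences below show where transcription of the leading members starts. Neurod1 had the largest ratio of control to NE mean, and Cbln3 the largest log2 fold change on log2(FPKM + 1). Pcp2 is the classic Purkinje cell gene, and Lhx1 and Lhx1os start from 1 short stretch in opposite directions. The sequences are from RefSeq on GRCm38.p6, 5′ to 3′ on the strand given, and cover the 250 bases before the start, or the 124 bases between both genes. Capitals mark CCAAT or its reverse complement ATTGG, and CATCTG or its reverse complement CAGATG, letters of the E-box family that Neurod1 and related factors bind. The windows are chr2:79456637-79456886 on the minus strand for Neurod1, chr14:55884257-55884506 on the minus strand for Cbln3, chr8:3625548-3625797 on the minus strand for Pcp2, and chr11:84525536-84525659 on the plus strand for Lhx1 and Lhx1os.
Neurod1: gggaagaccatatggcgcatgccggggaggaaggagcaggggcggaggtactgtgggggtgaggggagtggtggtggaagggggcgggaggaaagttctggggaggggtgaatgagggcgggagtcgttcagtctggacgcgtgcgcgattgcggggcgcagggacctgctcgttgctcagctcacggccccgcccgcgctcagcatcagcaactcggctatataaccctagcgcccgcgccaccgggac
Cbln3: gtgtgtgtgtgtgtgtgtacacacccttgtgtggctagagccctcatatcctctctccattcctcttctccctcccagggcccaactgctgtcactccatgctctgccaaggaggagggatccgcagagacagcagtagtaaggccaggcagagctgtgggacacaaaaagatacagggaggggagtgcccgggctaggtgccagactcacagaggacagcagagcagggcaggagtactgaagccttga
Pcp2: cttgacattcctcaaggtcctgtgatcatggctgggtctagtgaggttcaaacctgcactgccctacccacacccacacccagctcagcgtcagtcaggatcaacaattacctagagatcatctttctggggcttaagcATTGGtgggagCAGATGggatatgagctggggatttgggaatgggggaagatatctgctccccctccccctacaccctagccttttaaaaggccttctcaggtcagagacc
Lhx1 and Lhx1os: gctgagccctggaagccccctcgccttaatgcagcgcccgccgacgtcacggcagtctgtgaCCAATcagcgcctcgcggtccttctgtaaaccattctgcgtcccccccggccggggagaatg
RefSeq windows were found for 23 of the 34 genes, 30 windows in all. The 250 bases before the start were searched on both strands. CATCTG stood in 4 of the 30 windows, in Cnpy1 and Pcp2, against 14.4% of 32851 mouse windows. CAGCTG stood in 2 against 13.0%, and TAATTA, a core that homeodomain factors bind, in 2 against 4.84%. CCAAT stood in 12 of the 30 against 33.8%. The counts rest on few windows, and a match is a description of the letters only.

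The 34 genes were spread over 11 chromosomes, with 6 on chromosome 11. En2 and Cnpy1 are neighbours on chromosome 5, with 28652 bases between them, and Zic1 and Zic4 overlap by 3398 bases on opposite strands on chromosome 9. Pcp2 overlaps Pet100 by 2175 bases and Mmp24 overlaps BC029722 by 637 bases, also on opposite strands. Neurod1 lies inside the Cerkl gene on the same strand, where Cerkl reached at most 0.985 FPKM. Whether the counting used the strand is not stated, so reads of such pairs may be shared.

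In every one of the 34 genes the lowest control lay above the highest of all 14 exposed libraries. This describes how the genes were chosen: among 16416 genes with at least 1 FPKM in 3 libraries, 11.7% were ordered in this way. The 34 values summed to 566, 1380 and 552 FPKM in controls 1, 2 and 3, to 183 FPKM in brimonidine 5, and to between 47.9 and 68.3 FPKM in the other 13 exposed libraries. The ratio of the control to the NE mean ran from 2.81 for Zic2 to 130 for Neurod1, with a median of 25.4, and against the brimonidine mean from 2.56 to 57.9, with a median of 19.3. Without NE 1 the first ratios moved by over 1.5 times in 6 genes, with 301 for Neurod1 and 185 for Cbln3. Without control 2 they did so in 14, with a range of 1.9 to 83.4 and a median of 17.0, and without NE 2 in 1, Lhx5, from 46.1 to 118. The ratios to the brimonidine mean rested on brimonidine 5: without it they moved by over 1.5 times in 20 genes, for example from 32.6 to 231 for Cbln3, and the median was 37.5.

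**Figure D1:**
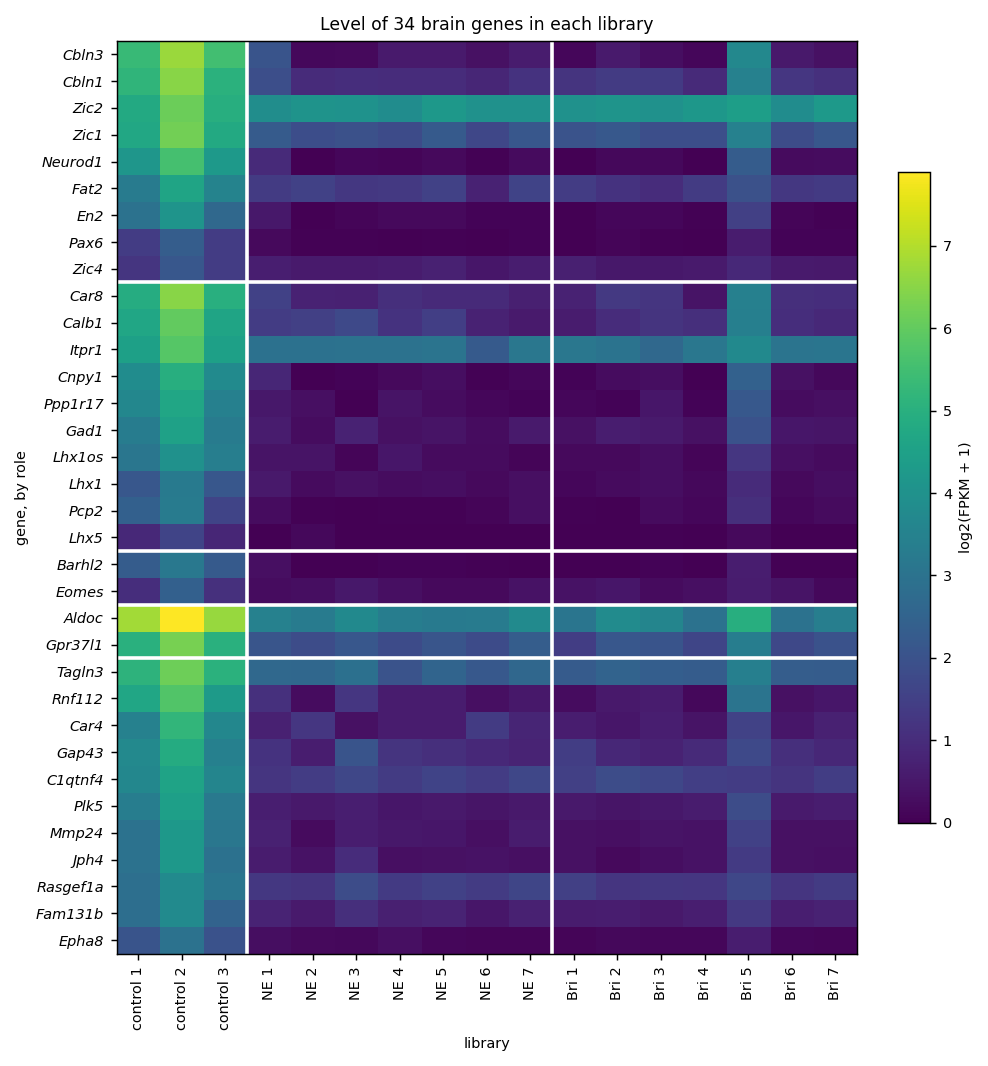
Level of each of the 34 genes, as log2(FPKM + 1) by color, in each of the 17 libraries (Bri, brimonidine). White lines separate the groups and, from top to bottom, granule cell genes, Purkinje and inhibitory neuron genes, other lineage factors, glial genes and broadly neuronal or other genes. Control 2 is the brightest column and brimonidine 5 the brightest of the 14 exposed libraries.

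Among the granule cell genes, the largest contrasts were in genes whose level in most exposed libraries was close to 0. Cbln3 encodes a secreted cerebellin that granule cells make together with Cbln1, and it had 39.1, 104 and 44.9 FPKM in controls 1, 2 and 3. In the NE group it lay between 0.131 and 3.16 with a median of 0.483, and in the brimonidine group between 0.106 and 11.8 with a median of 0.267. NE 1 and brimonidine 5 were its only exposed libraries above 1 FPKM. Cbln1, the cerebellin that joins granule cell fibers to Purkinje cell receptors, had 35.3, 89.9 and 32.1 FPKM in the controls. It lay between 0.814 and 2.7 in the NE group (median 1.01) and between 0.94 and 10.0 in the brimonidine group (median 1.4). Here too NE 1 and brimonidine 5 were the highest of their groups. Neurod1, a basic helix-loop-helix factor that granule cells keep into adulthood, had 16.7, 46.7 and 18.1 FPKM in the controls. It was between 0.0207 and 0.919 in the NE group (median 0.105) and between 0 and 3.92 in the brimonidine group (median 0.122), so that only brimonidine 5 passed 1 FPKM.

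En2, a homeodomain factor that sets the territory of the cerebellum and midbrain, had 6.92, 16.2 and 5.39 FPKM in the controls against medians of 0.0807 for NE and 0.0822 for brimonidine, where brimonidine 5 reached 1.8. Pax6, a factor of granule cell precursors, had 1.63, 4.01 and 1.65 FPKM in the controls against medians of 0.0293 and 0.0514. Fat2, a giant cadherin of granule cell axons, was found in both settings: it had 8.72, 23.7 and 10.6 FPKM in the controls, 0.69 to 2.02 in the NE group (median 1.61) and 1.0 to 2.9 in the brimonidine group (median 1.51).

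The 3 Zic genes encode zinc finger factors of the dorsal neural tube and of granule cells, and 2 of the 3 had the smallest ratios of all 34 genes. Zic1 had 25.4, 73.0 and 26.7 FPKM in the controls, 2.21 to 3.78 in the NE group (median 2.88) and 2.55 to 10.2 in the brimonidine group (median 3.05). Zic2 had 27.0, 69.6 and 30.0 FPKM in the controls, 13.2 to 17.5 in the NE group (median 15.1) and 13.4 to 20.6 in the brimonidine group (median 16.0). Zic2 was thus the member with the highest level in most exposed libraries. Zic4 had 1.33, 3.42 and 1.67 FPKM in the controls, 0.387 to 0.651 in the NE group (median 0.518) and 0.425 to 0.871 in the brimonidine group (median 0.473).

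The Purkinje cell genes were ordered in the same way. Pcp2, a regulator of G protein signaling made almost only by Purkinje cells and retinal bipolar cells, had 4.31, 8.76 and 2.08 FPKM in the controls. It lay between 0 and 0.248 in the NE group (median 0.0312) and between 0 and 1.11 in the brimonidine group (median 0.0955). Control 3 had 0.481 times the level of control 1, the lowest such ratio of the 34 genes. Car8, a carbonic anhydrase-related protein that binds the inositol trisphosphate receptor, had 29.0, 89.2 and 30.5 FPKM in the controls. It had 0.633 to 1.88 in the NE group (median 0.903) and 0.349 to 9.9 in the brimonidine group (median 1.1). The receptor itself, Itpr1, had 21.5, 56.0 and 21.4 FPKM in the controls, 3.74 to 7.82 in the NE group (median 6.85) and 5.38 to 12.5 in the brimonidine group (median 7.43). These 2 partners therefore differed in ratio, by 51.2 for Car8 and 5.01 for Itpr1, and Itpr1, which many tissues use, kept a level of several FPKM in the exposed libraries.

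Calb1, a calcium buffer of Purkinje cells that other neurons and epithelia also make, had 24.8, 62.6 and 23.7 FPKM in the controls, 0.492 to 2.35 in the NE group (median 1.67) and 0.527 to 9.71 in the brimonidine group (median 1.03). Ppp1r17, a phosphatase inhibitor of Purkinje cells, had 11.7, 24.7 and 9.84 FPKM in the controls against medians of 0.195 and 0.199, with 3.49 in brimonidine 5. Cnpy1, a regulator of fibroblast growth factor signaling at the border of midbrain and hindbrain, had 13.3, 30.3 and 12.6 FPKM in the controls against medians of 0.106 and 0.199, with 4.46 in brimonidine 5. In each of these genes brimonidine 5 was the only exposed library above 3 FPKM.

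Gad1, the enzyme that makes the inhibitory transmitter GABA, had 9.04, 22 and 8.76 FPKM in the controls, 0.191 to 0.681 in the NE group (median 0.329) and 0.276 to 2.99 in the brimonidine group (median 0.396). Lhx1, a LIM homeodomain factor of Purkinje cells, had 3.41, 8.51 and 3.39 FPKM in the controls against medians of 0.238 and 0.178. Lhx1os, the noncoding RNA that starts beside it, had 7.53, 14.9 and 9.35 FPKM against medians of 0.182 and 0.172. Lhx5, the related factor, was the lowest member, with 0.875, 2.08 and 0.786 FPKM in the controls and at most 0.146 in any exposed library. In fragments, Lhx5 had 34, 85 and 34 in the controls and between 0 and 7 in the exposed libraries.

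Eomes, a T-box factor that marks unipolar brush cells, had 1.03, 4.31 and 1.15 FPKM in the controls, 0.137 to 0.426 in the NE group (median 0.217) and 0.116 to 0.514 in the brimonidine group (median 0.307). Its control 2 was 4.18 times its control 1, the highest such ratio of the 34 genes. Barhl2, a homeodomain factor of several hindbrain and spinal lineages, had 3.95, 8.0 and 3.76 FPKM in the controls against medians of 0.0274 and 0.0251, with 0.246 in NE 1 and 0.535 in brimonidine 5.

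The 2 glial genes were above 1 FPKM in all 14 exposed libraries. Aldoc, an aldolase of astrocytes and of striped subsets of Purkinje cells, was the most abundant member, with 111, 238 and 101 FPKM in the controls. It had 8.6 to 12.7 FPKM in the NE group (median 9.1) and 6.84 to 30.2 in the brimonidine group (median 9.42). Gpr37l1, an orphan receptor of astrocytes and Bergmann glia, had 31.6, 77.3 and 31.1 FPKM in the controls, 2.46 to 3.98 in the NE group (median 3.21) and 1.69 to 9.27 in the brimonidine group (median 2.97). The ratio of control to NE mean was 14.9 for Aldoc and 15.3 for Gpr37l1.

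The 11 remaining genes are used by many neurons or have other roles, and their ratios of control to NE mean ran from 4.98 to 51.7, with a median of 23.5. Gap43, a growth cone protein of axons, had 12.3, 27.9 and 9.96 FPKM in the controls, 0.556 to 3.19 in the NE group (median 1.09) and 0.685 to 2.33 in the brimonidine group (median 0.919). Its highest exposed library was NE 3 and not brimonidine 5. Tagln3, a cytoskeletal protein of neurons, had 33.6, 69.8 and 32.0 FPKM in the controls, 3.09 to 6.59 in the NE group (median 5.19) and 3.81 to 9.71 in the brimonidine group (median 4.08). C1qtnf4, a secreted protein with C1q domains, had 11.5, 22.9 and 11.1 FPKM in the controls, 1.33 to 2.24 in the NE group (median 1.62) and 1.26 to 2.55 in the brimonidine group (median 1.74). It was the 1 gene whose value in brimonidine 5, 1.66 FPKM, was not the highest of the brimonidine group. Rasgef1a, an exchange factor for Ras proteins, had 6.33, 12.8 and 7.34 FPKM in the controls against medians of 1.59 and 1.41. Its highest exposed library was NE 3, with 2.54.

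Rnf112, a ring finger protein of the brain, had 24.8, 53.0 and 18.9 FPKM in the controls against medians of 0.509 for NE and 0.383 for brimonidine, with 7.15 in brimonidine 5. Car4, a carbonic anhydrase on cell surfaces that blood vessels also make, had 10.1, 36.0 and 11.7 FPKM against medians of 0.667 and 0.537. Jph4, which ties the endoplasmic reticulum of neurons to the plasma membrane, had 6.85, 17.6 and 6.69 FPKM against medians of 0.295 and 0.275. The other 4, which are Epha8, an ephrin receptor, Mmp24, a membrane metalloproteinase, Plk5, a polo-like kinase of neurons and glia, and Fam131b, had between 2.97 and 21 FPKM in the controls and between 0.0673 and 2.6 in the exposed libraries.

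**Figure D2:**
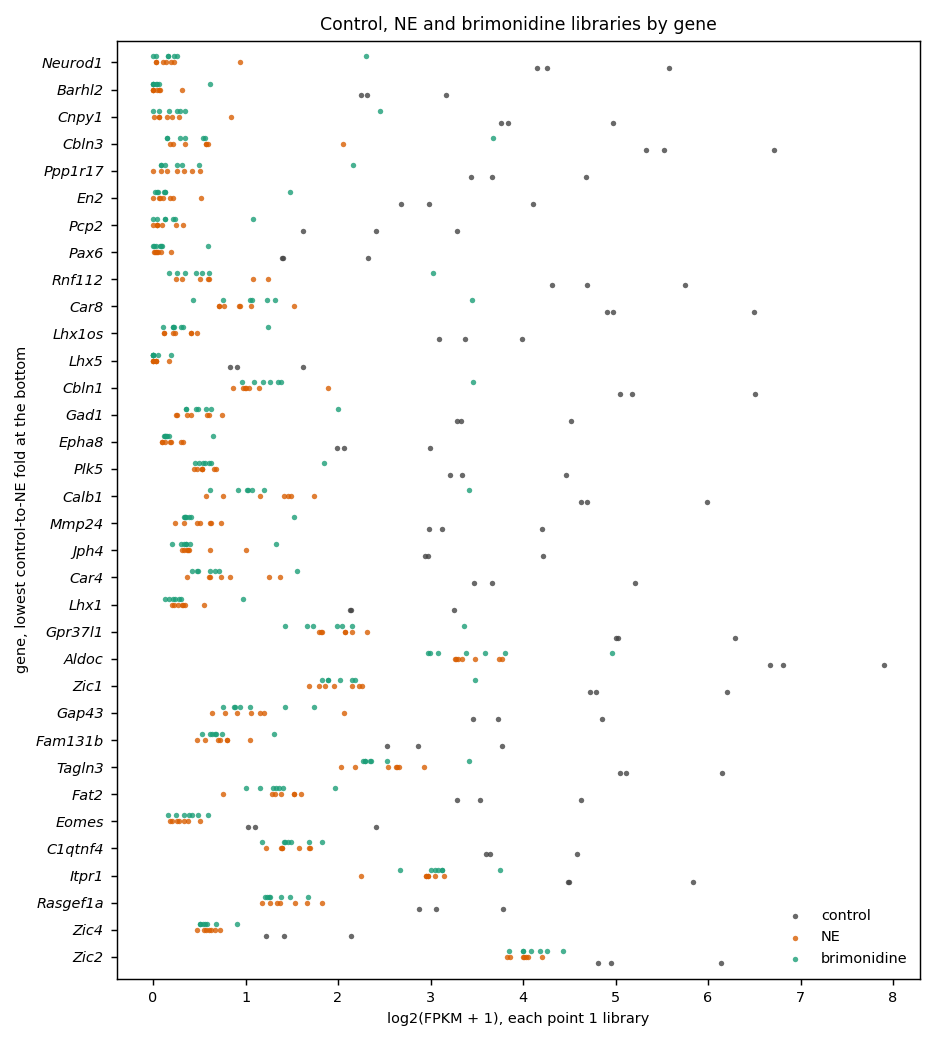
Each point is 1 library, placed by log2(FPKM + 1), with control in gray, NE in orange and brimonidine in green, and the 34 genes are ordered by their ratio of control to NE mean, from Zic2 (2.81) at the bottom to Neurod1 (130) at the top. The controls lie to the right of all exposed libraries in each gene, and brimonidine 5 is the green point nearest to them in most genes.

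Fitted with limma on log2(FPKM + 1), 875 of 15950 genes were called lower after noise than in the controls (5.49%), with an adjusted p under 0.05 and a log2 fold change of at least 1. Of the 34 genes 33 passed the filter on low values and 32 were called lower, with a median log2 fold change of -2.93 over the 33. These numbers restate the choice of genes. Of the 33, 21 had fewer than 3 NE libraries at 1 FPKM and passed the filter through the controls, and such a gene had to differ. Lhx5 did not pass, and Zic4 had a log2 fold change of -0.99. For brimonidine against control, which shares the control libraries, 5.56% of 15947 genes were called lower, and 33 members passed the filter with 32 lower and a median of -2.93. The largest log2 fold changes for NE were -5.21 for Cbln3 (standard error 0.41), -4.51 for Car8 (0.31), -4.45 for Cbln1 (0.3) and -4.42 for Neurod1 (0.3).

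The 3 controls did not have equal amounts of these genes. Control 2 was the highest control in 34 of 34 members, against 51.2% of the 16416 genes. The ratio of control 2 to control 1 was 1.98 to 4.18, with a median of 2.44, whereas that of control 3 to control 1 had a median of 0.973 (0.481 to 1.26). Genes of the cochlea were also higher in control 2: the median ratio to control 1 was 3.13 for the cochlear epithelium and stria list, 2.4 for Schwann cells and 1.88 for hair cells. For 12 genes of marrow and blood cells, a list added after the data were seen, it was 0.264. The part of these differences in the members' values was not tested. Leaving out any control left 18 members past the filter. Without control 2, 17 of the 18 were called lower, with a median log2 fold change of -2.65. Without controls 1 and 3 in turn all 18 were, with medians of -3.30 and -3.33. The -2.93 given above is over 33 members, a different set.

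Within the controls the proportions among the genes were alike. Over the 34 genes, the Pearson correlation of log2(FPKM + 1) was 0.988 between controls 1 and 3 and 0.991 between controls 1 and 2. It was 0.942 between control 1 and brimonidine 5, 0.805 between control 1 and NE 1, and as low as 0.56 with another exposed library. The points are genes of a chosen list, which share their library and are not independent, so these values are a description.

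Brimonidine was compared with NE for the same genes. The brimonidine libraries had no part in the choice of genes, but the NE libraries did, through their low values. Of the 34 genes 15 passed the filter in the 14 exposed libraries, and limma called none of them, with adjusted p between 0.899 and 0.997. Over all 15707 genes tested, 0 were called by limma, and 0 of 15690 by voom on recovered fragments, and at an unadjusted limma p under 0.05 519 were higher (3.3%) and 387 lower (2.46%), with none of the 15 members among them. With median ratio scaling that balance turned, to 366 higher and 471 lower. Exact two-sided permutation tests over the 7 and 7 libraries gave a p of 0.203 or more for each of the 34 genes, where the smallest possible is 0.000583. The log2 difference, brimonidine minus NE, was 0.4 for Cbln1 (standard error 0.32), 0.38 for Car8 (0.35), 0.22 for Zic1 (0.21) and -0.12 for Car4 (0.19), each less than 2 standard errors. For Zic2, which had the smallest standard error of the 15, it was 0.12 (0.08).

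The direction of the small differences rested on 1 library. With all libraries, the mean log2(FPKM + 1) was higher in the brimonidine group for 28 of 34 genes, with a median difference of 0.077. Without brimonidine 5 it was lower for 24 of 34, with a median of -0.051, and no exact p was under 0.05 in either case.

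In 31 of the 34 genes brimonidine 5 had the top value of the 14 exposed libraries, against 11.3% of the 16416 genes. Its level was set against the control excess, the control mean minus the median of the 12 exposed libraries other than itself and NE 1. Brimonidine 5 had between -0.858% (C1qtnf4) and 24.0% (Calb1) of that excess, with a median of 15.5%. The median was 18.5% in the 9 granule cell genes, 20.5% in the 10 Purkinje and inhibitory neuron genes, 14.9% in the 2 glial genes, 11.7% in Eomes and Barhl2 and 11.8% in the 11 broadly neuronal or other genes. In NE 1 the median share was 2.06%, and it was highest in Zic4 (6.64%) and lowest in Zic2 (-6.16%). NE 1 was the highest NE library in 12 of the 34 genes and NE 3 in 10, against 14.9% and 14.2% of the 16416 genes.

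**Figure D3:**
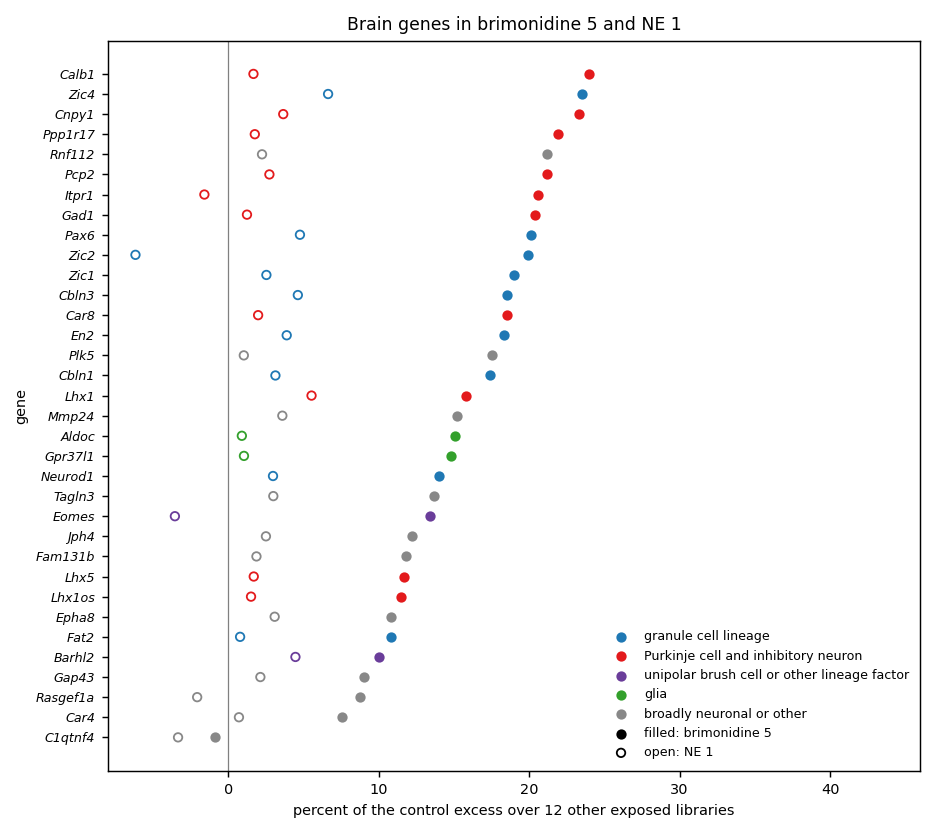
For each gene, the level in brimonidine 5 (filled) and NE 1 (open) as a percent of the control excess over the median of the 12 other exposed libraries, colored by role. Filled points run from -0.858% for C1qtnf4 to 24.0% for Calb1, and open points lie between -6.16% and 6.64%.

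Other genes of the same cell types, from lists that hold none of the 34 genes, were set beside them. Of 11 granule cell genes 10 passed the filter in NE against control and 9 were called lower, with a median log2 fold change of -2.58, against 5.49% of genes called lower and a median of -0.04 over all genes. Gabra6, a GABA receptor subunit of granule cells, had a log2 fold change of -5.2, and Grm4, a glutamate receptor of their axons, -4.11. Among the NE libraries both reached 1 FPKM only in NE 1, so they passed the filter through the controls and had to differ. Chn2, a regulator of Rac, had -2.96, and Slc17a7, the vesicular glutamate transporter of granule cells that other neurons use, -2.18. Every control lay above every exposed library in 11 of 11 granule cell genes, 13 of 16 Purkinje cell, 6 of 9 inhibitory interneuron, 10 of 13 astrocyte and Bergmann glia, 4 of 7 oligodendrocyte and 9 of 10 pan-neuronal genes. It did so in 1 of 12 brainstem, 2 of 15 forebrain and 1 of 13 spiral ganglion genes and in none of the choroid plexus, Schwann cell, hair cell and cochlear epithelium genes, against the 11.7% given above.

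Of 16 Purkinje cell genes 12 passed the filter and 11 were called lower, with a median of -2.0. They included Dner, a Notch ligand of Purkinje cells, at -2.41, and Homer3, a scaffold of their synapses, at -1.36. Pvalb, a calcium buffer that hair cells and spiral ganglion neurons also make, was not called, with -0.71 and 103, 257 and 111 FPKM in the controls against 52.3 to 107 in the exposed libraries. Pcp4, a calmodulin binding protein that Purkinje cells also make, was at most 0.216 FPKM in every control, far below Pcp2. Both lists together had 20 of 22 called lower, and 9 of 12 without control 2, 11 of 12 without control 1 and 11 of 12 without control 3. When any control was left out, 10 fewer of these genes passed the filter, so those 10 had passed through the controls and had to differ. Voom called 21 of the 22.

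Inhibitory interneuron genes had 4 of 7 called lower (median -1.43), among them Slc32a1, the vesicular transporter of GABA, at -2.11, while Sorcs3 had -0.48 and Prkcd 0.29. Astrocyte and Bergmann glia genes had 7 of 12 lower (median -1.84), with Slc1a3, the glutamate transporter of Bergmann glia, at -2.45, and Gdf10 (-0.96), Gfap (-0.7) and Aqp4 (-0.47) not called. Genes common to all neurons had 9 of 10 lower (median -2.27), such as Snap25 at -2.41, Stmn2 at -2.53 and Eno2 at -2.16, and Uchl1 at -0.96 was called by voom and not by limma. Oligodendrocyte genes had 2 of 5 lower (median -0.83): Mog at -1.25 and Olig1 at -1.32, with Mobp at -0.83 not called and Hapln2 at -0.68 called by voom only. Voom called 5 of the 7 inhibitory interneuron genes and 7 of the 12 astrocyte genes. Gad2, Slc32a1 and Tfap2b of the interneuron list and Timp4 and Ntsr2 of the astrocyte list were under 1 FPKM in every NE library. They passed the filter through the controls and had to differ. Olig1, Rbfox3 and Syt1, with fewer than 3 NE libraries at 1 FPKM, also passed through the controls. Leaving out 1 library gave 1 to 4 interneuron, 5 to 7 astrocyte, 8 to 10 pan-neuronal and 0 to 2 oligodendrocyte genes called lower.

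Few genes of other brain regions passed the filter. Of 12 brainstem neuron genes 1 passed the filter, Slc17a6, the glutamate transporter of many brainstem neurons, which had 1.99, 3.66 and 1.7 FPKM in the controls and was not called (-0.45). Atoh7, a factor of retinal and cochlear nucleus neurons, had 1.02, 3.6 and 0.802 FPKM in the controls and at most 0.453 in the exposed libraries. Slc6a5, the glycine transporter, had 0.807, 1.76 and 0.397 in the controls and at most 0.603 in the exposed libraries. Hoxb3, a factor of the caudal hindbrain, had at most 0.19 FPKM in the controls and 0.119 to 0.386 in the exposed libraries. Dbh, the enzyme that makes noradrenaline, was listed at 0 in all 3 controls. Forebrain neuron genes had 0 of 5 called by limma and 0 by voom, with 1 lower at an unadjusted p under 0.05 and a median of -0.17. Ppp1r1b (-0.54), Camk2a (-0.52) and Nrgn (-0.04) were present in all groups, and Six3, a factor of the anterior forebrain, was listed at 0 in all 3 controls. Of 5 choroid plexus genes 2 passed the filter, and 0 were called by limma or voom, with 1 lower at an unadjusted p under 0.05 and a median of -0.85.

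Genes of the cochlea and its nerve differed less. Of 11 spiral ganglion genes 1 was called lower (median -0.36), Ntrk3, a neurotrophin receptor, at -1.53, which is named here after its values were seen. Ntrk3 had fewer than 3 NE libraries at 1 FPKM, so it passed the filter through the controls and had to differ. Leaving out 1 library gave 0 to 2 spiral ganglion genes called lower. Tubb3 at -1.18 was called by voom and not by limma, and Nefl at -0.7 and Nefh at -0.63 were called by neither. None of 7 Schwann cell genes was called by limma or voom (median -0.33), none of 6 hair cell genes (median -0.11, with Myo7a at 0.08 and Gfi1 at 0.74) and none of 6 genes of the cochlear epithelium and stria (median -0.26, with Coch at -0.26 and Gjb2 at -0.41). At an unadjusted p under 0.05, which 22.3% of all genes passed as lower and 10.6% as higher (3557 and 1695 genes, but 2637 and 2916 with median ratio scaling and 2567 and 3103 with quantile scaling), 3 spiral ganglion genes, 1 Schwann cell gene and 1 hair cell gene were lower, and 1 spiral ganglion gene and 1 hair cell gene were higher. No gene of any list was called higher by limma or voom, against 0.27% of all genes by limma. Of the 94 list genes tested, 61 were lower and 3 higher at an unadjusted p under 0.05. In brimonidine against NE, 0 of 75 list genes were called by limma or voom, with 4 higher and 1 lower at an unadjusted p under 0.05.

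**Figure D4:**
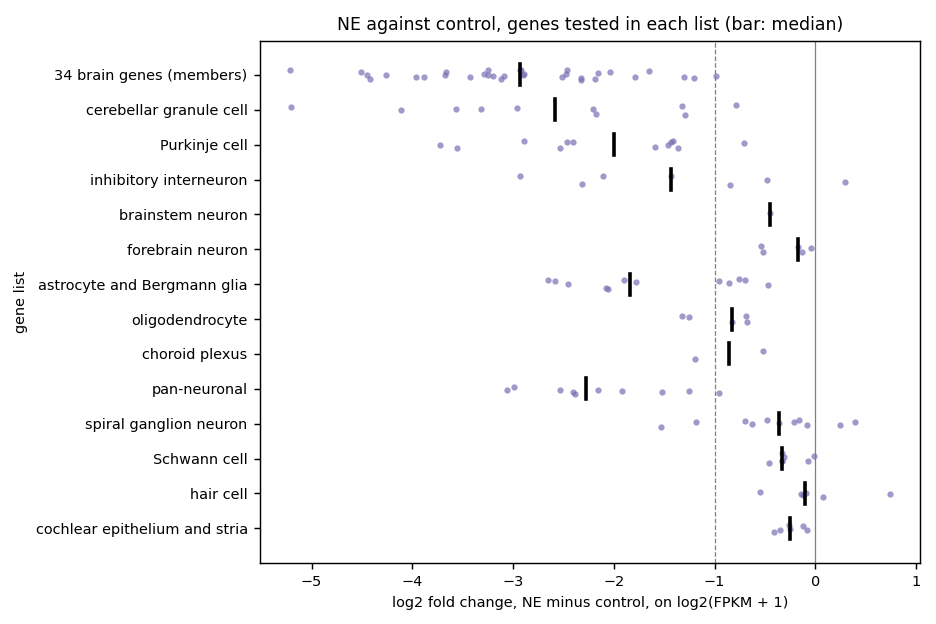
Log2 fold change, NE minus control, on log2(FPKM + 1), for the genes of each list that passed the filter (points) with the list median (bar), with solid and dashed lines at 0 and -1. The members have a median of -2.93, granule cell genes -2.58 and Purkinje cell genes -2.0, and the 4 lists of the cochlea and its nerve lie between -0.36 and -0.11.

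The lists also differed between single libraries. As the median over a list of log2((FPKM + 1) / (median of the 12 exposed libraries + 1)), brimonidine 5 had 1.13 for granule cell genes, 1.17 for Purkinje cell genes, 0.8 for genes common to all neurons, 0.51 for astrocytes and Bergmann glia, 0.19 for oligodendrocytes, 0.18 for inhibitory interneurons, 0.12 for Schwann cells, 0.1 for forebrain neurons, 0.08 for the cochlear epithelium, 0.04 for hair cells and 0.01 for the spiral ganglion. NE 1 had 0.25 for granule cell genes and -0.22 for genes common to all neurons. NE 3 had -0.07 for granule cell genes, 0.67 for genes common to all neurons and 0.43 both for the spiral ganglion and for Schwann cells, and the 10 members in which it was the highest NE library were Calb1, Gad1, Eomes, Gap43, Tagln3, Jph4, Rasgef1a, Fam131b, Rnf112 and Plk5.

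**Figure D5:**
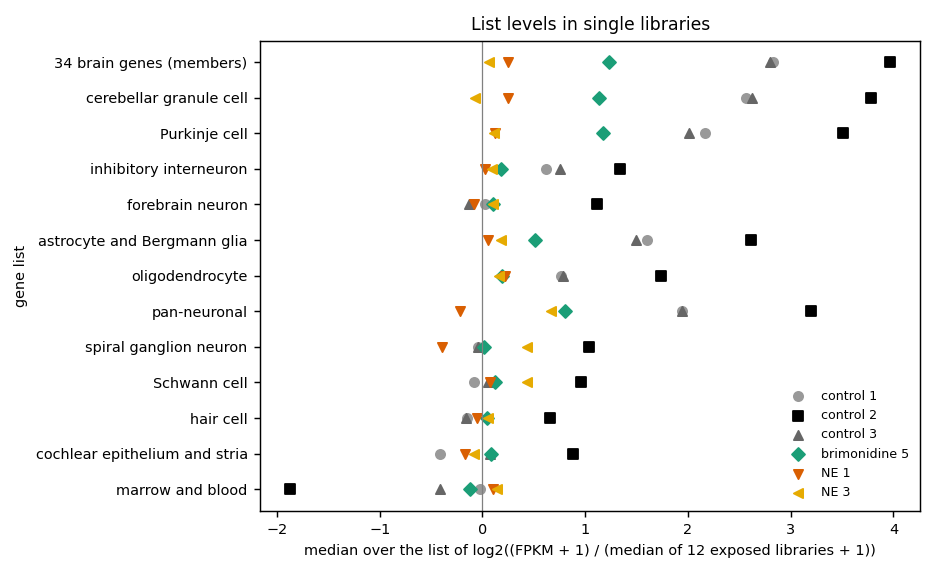
Median over each list of log2((FPKM + 1) / (median of 12 exposed libraries + 1)) in the 3 controls, brimonidine 5, NE 1 and NE 3, for lists with 5 or more genes whose mean FPKM reached 1. In brimonidine 5 the members are at 1.23 and the spiral ganglion list is at 0.01, and in control 2 all lists are above 0 except marrow and blood at -1.87.

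There were 9 members that kept at least 1 FPKM in 12 or more of the 14 exposed libraries: Zic1, Zic2, Fat2, Itpr1, Aldoc, Gpr37l1, Tagln3, C1qtnf4 and Rasgef1a. Their exposed medians ran from 1.54 FPKM for Fat2 to 15.2 for Zic2. At the other end, 16 members were under 1 FPKM in all 7 NE libraries, and 8 were listed at 0 in at least 1 exposed library, 21 of 476 values. No member was listed at 0 in a control.

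Over the 14 exposed libraries, the genes whose log2(FPKM + 1) followed the mean of the 15 tested members most closely were Mir124a-1hg, the host transcript of a neuronal microRNA (Pearson r = 0.955), Apba2, a synaptic adaptor (0.935), Sbk1, a kinase of the brain (0.931), Ppfia4, a liprin of synapses (0.925), and Gria4, an AMPA receptor subunit (0.925). Without brimonidine 5 and NE 1 the correlations over the 12 other libraries were 0.6, 0.871, 0.705, 0.638 and 0.641. Mir124a-1hg had a mean of 34.2 FPKM over the controls and 1.33 over the NE libraries, and 6.31 in brimonidine 5. The points share their libraries, and the correlations are a description.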

How the data were processed

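The authors deposited 1 table of FPKM values for 35285 genes in 17 libraries. The submitters' processing notes name Trimmomatic, HISAT2, HTSeq, Cufflinks and mm10, with no versions given in the sources used here. Multiplied by exon length, a median of 92.9% of genes per library came out as whole numbers of fragments within 0.02, which gave the totals. Library groups came from the sample labels. Genes with at least 1 FPKM in 3 of the libraries compared were tested on log2(FPKM + 1) with limma 3.58.1 in R 4.3.3 (eBayes with a trend), each model holding only the 2 groups compared. Genes were called at a Benjamini-Hochberg adjusted p below 0.05 together with a log2 fold change of 1 or more in either direction. Fold changes on this scale understate changes of low genes. DESeq2, the authors' test, needs counts and was not used. Exact permutation tests, correlations and figures used scipy 1.17.1, pandas 2.3.3, numpy 2.4.6 and matplotlib 3.10.9 under Python 3.11.15.

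The members and the 13 lists were chosen with earlier results of these data known. Named genes were all 34 members, up to 4 genes of each list with the highest mean FPKM, list genes of other brain regions at 0 in every control, and the 5 genes most correlated with the mean of the tested members. Some list genes are not reported here by name. Other genes were named after their values were seen. Positions are those of the deposited table, of which 93.9% were identical to GENCODE M21. With 200 genes changed by a log2 fold change of 2 in simulated data, the fit recovered 193 for NE against control (15950 genes) and 200 for brimonidine against NE (15707 genes), with 0 false calls. The simulation drew its changed genes from those with a higher mean FPKM, capped the spread of each gene and used normal noise. Recovery for low genes, such as many members, or with an outlying library such as brimonidine 5 was not simulated. Replicate numbers did not pair the libraries, and p-values measure the spread between mice.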

Additional observations from a re-analysis of the deposited data

Results flagged for a closer look

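Within the NE and brimonidine groups of 7 libraries, a value was marked where its gap to the nearest of the others, divided by the range of the group, passed Dixon's 95% critical value for 7. The groups tested were those of the members and of other genes named here, not of every list gene. Of 182 groups of values tested 75 were marked, where chance alone marks about 1 in 20 groups, and genes that move together are not independent. Values are in FPKM.

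Brimonidine 5 was far above the other 6 brimonidine libraries in 29 of the 34 members: Cbln1 (10), Cbln3 (11.8), Neurod1 (3.92), Zic1 (10.2), Zic4 (0.871), Pax6 (0.51), En2 (1.8), Fat2 (2.9), Pcp2 (1.11), Car8 (9.9), Ppp1r17 (3.49), Calb1 (9.71), Itpr1 (12.5), Cnpy1 (4.46), Gad1 (2.99), Lhx1 (0.967), Lhx5 (0.146), Lhx1os (1.37), Barhl2 (0.535), Aldoc (30.2), Gpr37l1 (9.27), Tagln3 (9.71), Epha8 (0.561), Jph4 (1.51), Fam131b (1.47), Mmp24 (1.87), Rnf112 (7.15), Plk5 (2.6) and Car4 (1.95). The same library stood above the others in 11 named genes of the lists: Gabra6 (8.81), Grm4 (4.73), Chn2 (4.04), Dner (7.35), Slc32a1 (1.71), Atoh7 (0.276), Slc1a3 (10.1), Snap25 (24), Stmn2 (5.51), Eno2 (11.9) and Ntrk3 (1.74). They are genes of granule cells, Purkinje cells, inhibitory neurons, astrocytes and neurons in general, with Atoh7 from the brainstem list and Ntrk3 from the spiral ganglion list, and no gene tested of the cochlear, Schwann cell or hair cell lists was among them. The 5 genes chosen for following the members stood out there too, as that choice implies: Mir124a-1hg (6.31), Apba2 (2.59), Sbk1 (9.11), Ppfia4 (6.91) and Gria4 (2.99).

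NE 1 was far above the other 6 NE libraries in 9 members: Cbln1 (2.7), Cbln3 (3.16), Neurod1 (0.919), Pax6 (0.141), En2 (0.435), Car8 (1.88), Cnpy1 (0.797), Lhx1 (0.462) and Barhl2 (0.246). In the lists it stood out in Gabra6 (2.08) and Grm4 (1.04), both of granule cells. NE 3 stood out in 2 members, Gap43 (3.19) and Jph4 (1.01), and in 4 genes of the lists, Camk2a (5.44), Stmn2 (5.51), Uchl1 (20) and Tubb3 (24.7), of which none is a granule cell gene. NE 2 was highest for Lhx5 (0.126) among the members, and NE 6 was the lowest for Itpr1 (3.74). NE 6 was also the lowest for Ntrk3 (0.366).

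Brimonidine 4 stood out in all 5 genes of the choroid plexus list, Ttr (725), Kcnj13 (1.28), Folr1 (2.24), Clic6 (6.42) and Kl (3.98), and NE 5 in 1, Ttr (19.6). Genes at or near 0 were marked where a single library was above the rest: Pcp4 in brimonidine 3 (0.0856), Dbh in NE 2 (0.021), and Six3 in NE 7 (0.0104) and in brimonidine 4 (0.0206).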

How the results depend on the processing

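All 647 log2 fold changes of the 34 members for NE against control, over the alternatives, were below 0. This sign restates the choice of genes, since every control lay above every NE library in each member. For brimonidine against NE, where no member was called, the median over the 15 tested members was 0.09 and reversed to -0.01 with array weights and to -0.09 over the 13 that passed the filter without brimonidine 5, the lowest of a range up to 0.15 over the libraries left out. Median ratio and quantile scaling moved the median of all genes for NE against control from -0.04 to 0.06. For NE against control, lower and higher calls were 1909 and 338 with no minimum fold change. Higher calls were 79 with a pseudocount of 0.1, 17 with no filter, 86 with all libraries in 1 model and 137 with array weights. For brimonidine against control, calls were 1965 lower and 553 higher with no minimum fold change, and 66 higher with a pseudocount of 0.1, 9 with no filter, 50 with median ratio or quantile scaling, 112 with array weights and 56 with voom. Voom on recovered fragments, chosen after seeing the data, called 1191 genes lower for NE. The members' median log2 fold change was -4.29 and -4.13 with a pseudocount of 0.1 for NE and brimonidine, and -4.63 and -4.65 with voom, which adds less to low values. Brimonidine against NE had 1 gene with array weights and 1 with no minimum fold change.

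Leaving out 1 library gave 340 to 909 lower and 22 to 144 higher calls for NE, and 450 to 922 lower and 12 to 180 higher for brimonidine against control. It was control 2 that gave the 340 and the 450, and control 1 the 144 and the 180. The cerebellar lists had 9 to 20 genes lower, with the lowest without control 2 and 11 without control 1 or control 3. With the replicate number as a block, which the data did not bear out (correlations of same-numbered libraries between -0.221 and 0.083), NE against control had 0 lower and 0 higher calls, with 0 in the cerebellar lists and 0 members, although the members' median log2 fold change was -2.9 and 33 of 33 were lower at an unadjusted p under 0.05, and brimonidine against control had 234 lower and 2 higher. The direction of the members with this block restates the choice of genes. Depth limits the genes under 1 FPKM, where an exposed library holds few fragments. With 3 controls, the SD of the members' median level over the controls was 0.68 on the log2 scale.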

Other observations

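Choroid plexus genes, which mark the tissue that makes cerebrospinal fluid, followed another library than the 34 members. Ttr, the thyroid hormone carrier of the choroid plexus, had 725 FPKM in brimonidine 4 and at most 60.2 in any other library, a value of control 1. Folr1 had 2.24 FPKM in brimonidine 4 against at most 0.19 in the controls, Clic6 had 6.42 against at most 4.04, and Kl had 3.98 against at most 1.09. In brimonidine 4 the granule cell gene Cbln3 had 0.107 FPKM and Gabra6 0.0225, whereas in brimonidine 5, which held the most of the members among the exposed libraries, Ttr had 5.67 FPKM.

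NE 3 had more of the genes common to all neurons, of the spiral ganglion and of Schwann cells, such as Tubb3 at 24.7 FPKM against 6.62 to 12.3 in the other NE libraries, with 0.157 FPKM of Cbln3 and 0 of Gabra6.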
